A study of Mus musculus with 100 samples.

Results

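Sox1, Sox2, Sox3, Sox21, Nes, Msi1, Prom1 and Vim, 8 genes widely used to recognise neural stem and progenitor cells, were followed through 37 RNA sequencing libraries from mouse cultures and embryos. The genes were listed by name, with earlier results of these data known, and make up 8 of the 23109 gene-level entries in the tables. Each was represented by the transcript with the most reads, and its level is given as CPM (read counts scaled by library size) after 1 scaling of all libraries by the trimmed mean of M values (TMM). All cultured cells lacked Mll3 (Mll3-/-). The reference cultures, called flox, carried Mll4flox/flox, and the KI cultures carried Mll4KI/KI. Mll3 and Mll4 are older names of Kmt2c and Kmt2d, which encode related histone H3 lysine 4 methyltransferases. What the KI allele changes is not written in the sample labels. The KI replicates were clones 27 and 48, so they are 2 clones and not repeats of a single line.

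The neural protocol aggregated embryonic stem cells (ESCs), added retinoic acid after day 4 and then plated the cells in N-2 and B-27 medium. It was sampled at day 8, the progenitor stage of the labels, and at day 16, their neuron stage, with 2 flox and 2 KI libraries each time. Whole embryos were collected at E8.5 and E9.5, with 3 libraries per group. Control embryos were Mll3flox/KI;Mll4flox/+;Sox2-Cre and KI embryos Mll3flox/KI;Mll4flox/KI;Sox2-Cre, so both groups carried the Sox2-Cre transgene, which is driven from the promoter of a gene described here. The remaining cultures were trophectoderm (TE) at day 6, made with a doxycycline-inducible, T7-tagged CDX2, extraembryonic endoderm (ExEn) at day 5, ESCs at day 0 and embryoid bodies (EBs, freely floating aggregates) at days 4 and 10. TE and ExEn had 2 libraries per group, whereas the EB course had 1 flox and 2 KI libraries per day. Nothing in the labels says that replicates came from separate cultures, so p-values measure only the spread between these libraries.

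SOX proteins bind DNA through a high mobility group domain. Sox1, Sox2 and Sox3 form the SOXB1 group, closely related activators that keep neural progenitors dividing and hold back neuronal differentiation, and that partly replace each other. Sox2 also works with Pou5f1 to keep stem cells pluripotent. Sox21 belongs to the SOXB2 group of repressors, which oppose SOXB1 targets. Nes encodes nestin and Vim encodes vimentin, intermediate filament proteins that assemble together in progenitors, and vimentin is also abundant in mesenchyme. Msi1 encodes Musashi, an RNA-binding protein that represses translation of differentiation factors, and Prom1 encodes prominin, a membrane protein of cell protrusions that is also known as CD133.

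Upstream sequences are shown for 4 genes so that the start-site regions of 2 SOXB1 genes can be compared with those of both filament genes. They are the 250 bases before the RefSeq transcription start on GRCm38.p6, written 5′ to 3′ on the gene's strand. Capitals mark exact matches, on either strand, to the core of SOX sites (ACAANG), the octamer bound by POU factors (ATGCAAAT), CCAAT and TATAAA.
Sox1, chr8:12395269-12395518, plus strand: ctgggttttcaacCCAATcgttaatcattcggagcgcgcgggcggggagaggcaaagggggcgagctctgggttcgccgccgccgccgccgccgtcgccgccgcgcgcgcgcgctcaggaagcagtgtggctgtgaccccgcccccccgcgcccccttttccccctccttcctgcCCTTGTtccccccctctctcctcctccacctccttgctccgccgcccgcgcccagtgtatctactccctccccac
Sox2, chr3:34649745-34649994, plus strand: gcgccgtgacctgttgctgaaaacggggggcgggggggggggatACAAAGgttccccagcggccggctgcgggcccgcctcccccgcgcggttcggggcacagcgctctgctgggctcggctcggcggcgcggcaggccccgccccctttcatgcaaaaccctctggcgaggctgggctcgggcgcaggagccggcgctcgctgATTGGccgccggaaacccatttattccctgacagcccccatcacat
Nes, chr3:87970843-87971092, plus strand: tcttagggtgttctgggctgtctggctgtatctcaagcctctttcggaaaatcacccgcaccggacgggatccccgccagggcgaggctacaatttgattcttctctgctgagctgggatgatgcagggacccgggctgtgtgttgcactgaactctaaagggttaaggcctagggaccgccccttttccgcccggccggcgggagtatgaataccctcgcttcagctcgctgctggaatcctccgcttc
Vim, chr2:13574061-13574310, plus strand: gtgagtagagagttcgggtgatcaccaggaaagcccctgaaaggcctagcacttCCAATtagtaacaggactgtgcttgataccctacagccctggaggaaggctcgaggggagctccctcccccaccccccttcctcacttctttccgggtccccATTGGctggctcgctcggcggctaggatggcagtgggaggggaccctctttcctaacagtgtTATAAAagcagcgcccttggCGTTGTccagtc
The Sox1 and Sox2 windows were rich in G and C, with 29 and 27 CpG dinucleotides, against 15 in Nes, 8 in Vim and a median of 6 over 32536 windows of the same length. Their GC content was 71.2% and 72.0%, that of Nes 58.8% and that of Vim 58.4%, with a median of 52.4% over all windows. A SOX core stood once in the Sox1, Sox2 and Vim windows and not in that of Nes, and 36.2% of all windows held at least one. The octamer was in none of the 4 and in 1.62% of all windows. CCAAT or its complement was found once in Sox1, once in Sox2 and at 2 places in Vim, against 33.8% of windows with a match. Only Vim among the 4 held TATAAA, as did 12.3% of all windows. Prom1, with 2 annotated starts, and Sox21 were also found in the table. A match is a description of letters and not of a bound site, and the deposited values, made on mm9 per the submitters' processing notes, do not depend on these sequences.

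Gene-level totals were 39015978 to 59880727 reads in neural libraries and 18908148 to 27555277 in the others, so a single read weighs least in the neural set. Kmt2c and Kmt2d transcripts were present in every library, at 28.6 to 107 CPM and 141 to 343 CPM, which does not test the genotypes. The pair of flox libraries at neural day 8 were closer than any other replicates (chi-square over its degrees of freedom 1.5, and 2.76 to 54.8 elsewhere), so replication of that group may be overstated. The labels were compared with marker genes. Summed over 12 neuronal genes, levels were 1785 to 1800 CPM in flox at neural day 8 and 8049 to 8297 at day 16, and 12 of 12 were higher at day 16 in both genotypes. Mesenchyme genes (10 listed, among them Col1a1 and Pdgfra) summed to 4336 to 4573 CPM in flox at day 16. In bulk RNA, fewer cells of a type and less RNA per cell cannot be told apart.

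Neural day 8 was where most of these genes stood highest. Of the 18 groups, neural day 8 KI had the highest mean of Sox3 (250.2 CPM), Sox21 (110), Msi1 (327) and Prom1 (102), and neural day 8 flox the highest mean of Nes (532). The exceptions were Sox1, highest in E9.5 control embryos (76.4 CPM), Sox2, highest in flox ESCs (726), and Vim, highest in flox ExEn (1658). Per kilobase of transcript (the authors' RPKM), Vim led at flox neural day 8 with 366, followed by Msi1 with 98.5, Sox2 with 73.2, Sox3 with 64.6 and Nes with 60.2. Prom1 (16.7 RPKM), Sox21 (16.02) and Sox1 (7.05) were lower. The spans between groups differed widely among the genes. Sox2 ran 157-fold from flox ESCs to KI ExEn, where it had 4.62 CPM, and Sox3 ran 91.4-fold from neural day 8 KI to KI ExEn at 2.74. Vim spanned 8.86-fold, with its lowest mean, 187 CPM, in flox TE. Without TMM factors the highest group was the same for all 8 genes.

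**Figure D1:**
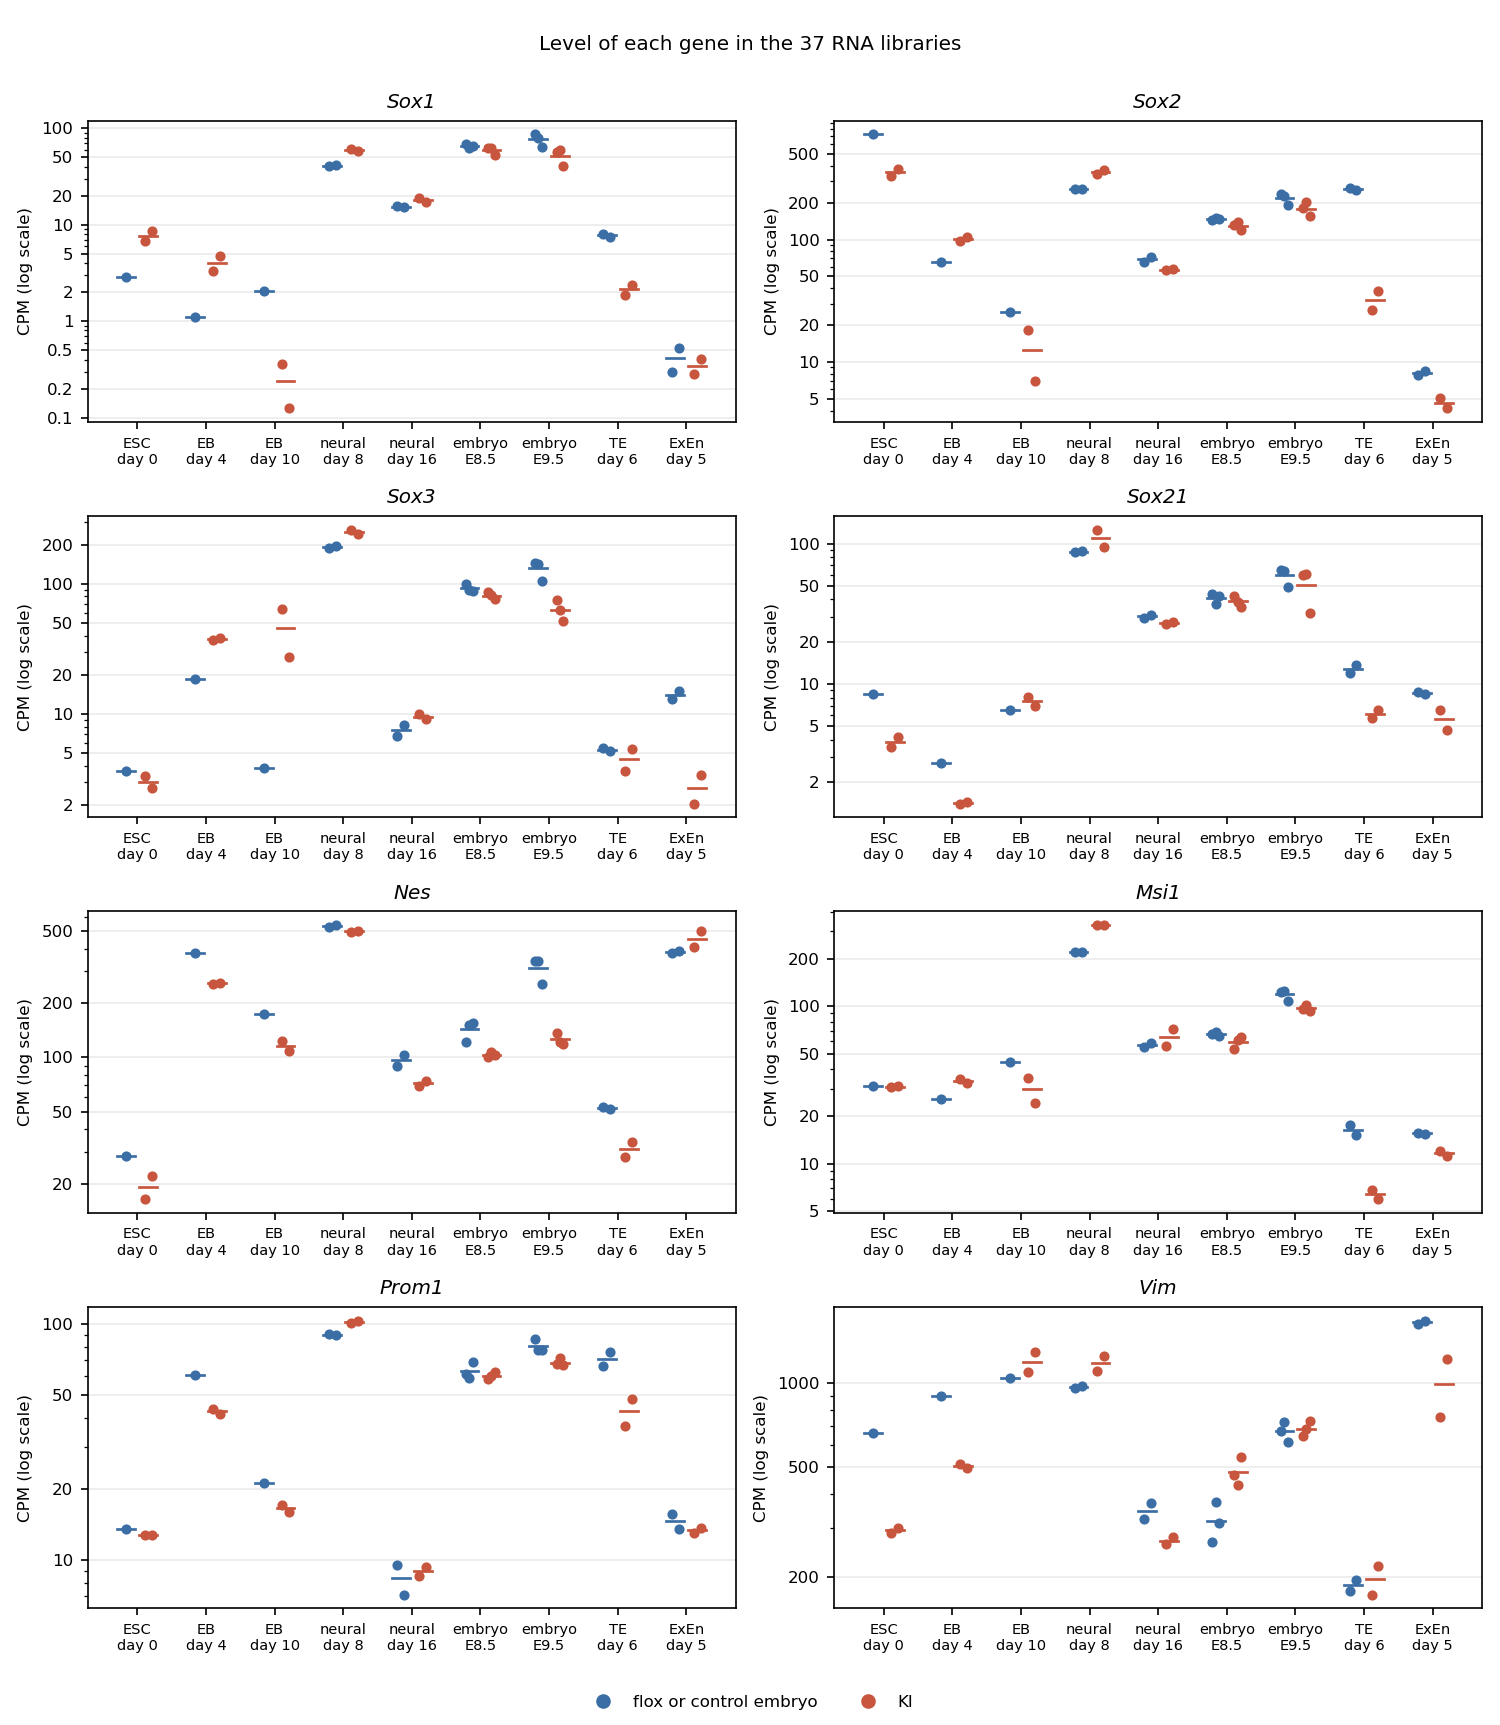
Levels of the 8 genes in all 37 libraries, in CPM on a logarithmic axis, by group, with flox or control and KI libraries in separate colours, each point 1 library and each line a group mean. Neural day 8 holds the highest points of Sox3, Sox21, Msi1 and Prom1, while Sox2 is highest in the flox ESC library at 726 CPM and Vim in flox ExEn.

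The order of groups was gene by gene. For Sox1 the 5 highest means belonged to the 4 embryo groups and neural day 8 KI, and from the third to the sixth place neighbouring groups overlapped. Sox1 was nearly absent from ExEn (0.281 to 0.525 CPM, 6 reads in the lowest library). Sox2 in flox TE (252 and 266 CPM) overlapped Sox2 in flox neural day 8 (257 and 261), so that gene alone did not separate these cultures. Msi1 was 51.1-fold lower in KI TE (6.40 CPM) than in KI neural day 8. Prom1 had its lowest means at neural day 16, 8.94 CPM in KI and 8.35 in flox, which overlapped. Nes was high outside neural cells too: KI ExEn, at 409 and 498 CPM, overlapped KI neural day 8, at 496 and 502. Levels across protocols are a description, since the sets carry different molecule labels (poly(A) RNA or total RNA).

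Shares within the SOXB1 group were compared in RPKM, which allows for length. Sox2 made 99.2% of the group's summed RPKM in flox ESCs and 97.7% in KI ESCs. At neural day 8 it made 50.6% in flox and 51.6% in KI, Sox3 made 44.6% and 43.2%, and Sox1 4.87% and 5.23%. The Sox3 share was lower later: at day 16 its share was 10.3% in flox and 14.4% in KI. In E9.5 embryos Sox3 made 36.9% of the sum in controls (35.4% to 37.9%) and 26.4% in KI (23.8% to 29.7%), and the groups did not overlap. Among the 9 pairs of groups the largest gap stood in EBs at day 10, where Sox3 made 14.7% in the flox library and 80.7% and 82.3% in the 2 KI clones. Summed RPKM there was 10.2 in flox and 22.0 on average in KI, and this difference was not tested.

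**Figure D2:**
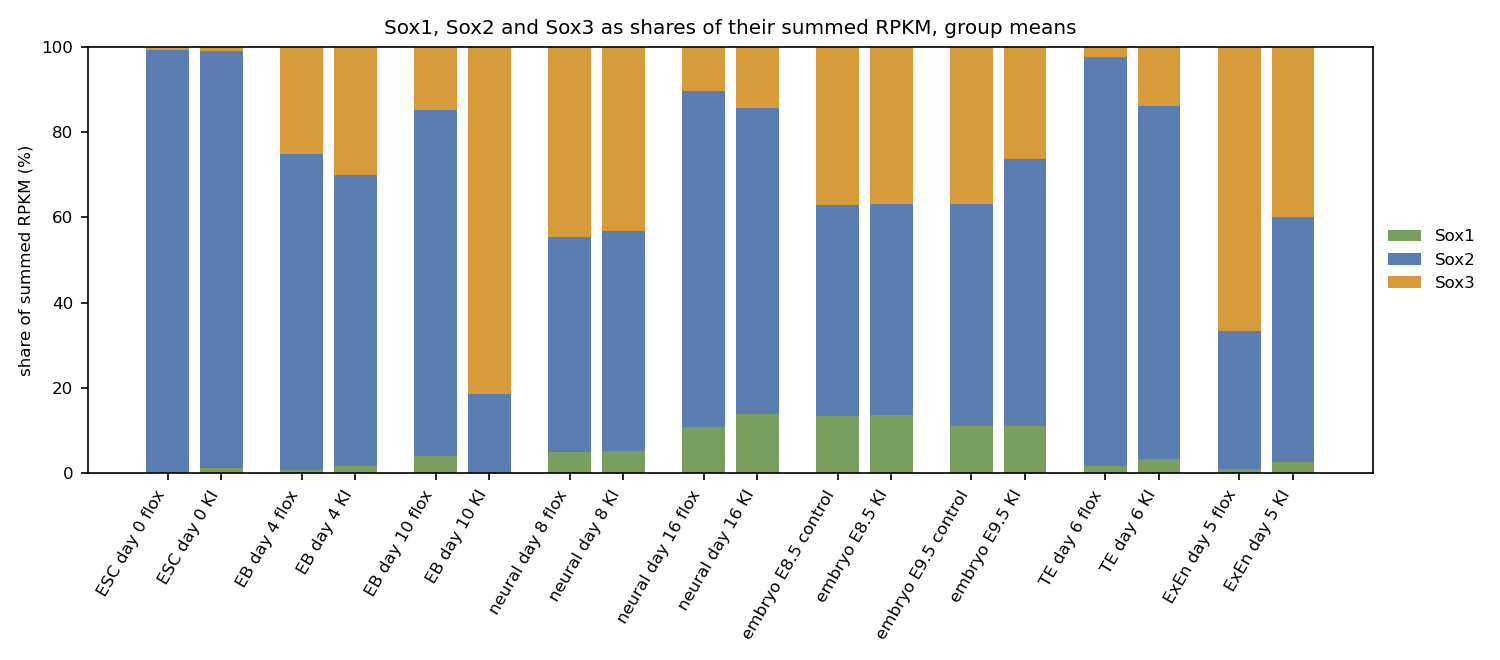
Share of Sox1, Sox2 and Sox3 in their summed RPKM, in percent, stacked to 100 for each of the 18 groups (means over libraries). Sox2 makes nearly all of the sum in ESCs, Sox2 and Sox3 share it at neural day 8 and in embryos, and Sox3 leads in KI EBs at day 10 with a mean of 81.5%.

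At neural day 8 the KI cultures held more SOXB1 and Musashi RNA than flox, while nestin did not differ by the test. Msi1 was 220 and 220 CPM in flox and 328 and 326 CPM in KI. Sox1 was 40.4 and 41.7 CPM in flox against 60.9 and 57.4 in KI clones 27 and 48. Sox2 was 257 and 261 CPM against 341 and 369. For each of the 3 genes both KI libraries lay above both flox libraries, as they did for 30.4% of all genes tested. The log2 fold changes were 0.58 (SE 0.11, edgeR quasi-likelihood test, Benjamini-Hochberg adjusted p = 0.00241) for Msi1, 0.54 (SE 0.09, adjusted p = 0.00106) for Sox1 and 0.47 (SE 0.09, adjusted p = 0.00262) for Sox2.

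Sox3 was 189 and 195 CPM in flox and 260.5 and 240 in KI at day 8, again without overlap (log2 fold change 0.39, SE 0.10, edgeR adjusted p = 0.0186). That edgeR call was lost without flox 1 (adjusted p = 0.152), flox 2 (0.104) or KI clone 27 (0.128). The repressor Sox21 was 87.1 and 88.3 CPM in flox and 126 and 93.9 in KI, and its difference of 0.34 was not called (edgeR adjusted p = 0.0713). KI clone 48 lay near the flox libraries and clone 27 well above them, and the difference was 0.54, and called, without clone 48 (edgeR adjusted p = 0.00634) and 0.10 without clone 27 (0.591). Vim (961 and 976 against 1105 and 1252 CPM, log2 fold change 0.30) missed the threshold as well, at an edgeR adjusted p of 0.0638. Both Sox21 and Vim were called with DESeq2, at adjusted p = 0.0264 and 0.0106, and Vim also without KI clone 27 (0.38, edgeR adjusted p = 0.0474). Nes was 524 and 539 CPM in flox and 496 and 502 in KI, a difference of -0.08 with an edgeR adjusted p of 0.656. Prom1 differed by 0.19 (edgeR adjusted p = 0.286) and was called in 1 of 11 alternatives, while Sox21 and Vim were each called in 4 of 11.

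In all, 4 of the 8 genes were higher in KI at day 8 and none lower, against 6.3% of 16439 genes tested that were higher and 13.2% that were lower. Their median log2 fold change was 0.36, and 0.00 over all genes tested. All 8 passed the filter on low counts in this and every other comparison. For ExEn, and for KI EBs at day 10, Sox1 did so only through other groups of the same fit, where it was higher. Other gene groups moved too. Of 10 genes of dividing cells, 4 were higher in KI, with summed levels of 2763 to 2789 CPM in flox and 3349 to 3493 in KI. Of 12 neuronal genes 8 were lower (1785 to 1800 against 1213 to 1406 CPM), and of 10 mesenchyme genes 7 were lower (391 to 394 against 150 to 199.9 CPM). Of 9 extraembryonic endoderm genes 8 were lower (115 CPM in both flox libraries, 37.4 to 40.3 in KI). Of 8 pluripotency genes 4 were lower and 2 higher, and of 6 heart genes 3 were lower, each list summing to under 16 CPM in every library. The part of these shifts in the members' differences was not tested.

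Related gene lists did not move as a block at day 8. Of 25 other neural progenitor genes that were tested, 10 were higher in KI and 7 lower, among them Dbx1, a patterning factor of intermediate spinal cord progenitors (log2 fold change -2.92). Among 14 SOX genes outside the 8, 2 were higher and 6 lower, led by the endothelial and endodermal factors Sox18 (-3.64) and Sox17 (-2.24). Of 6 POU genes whose products pair with SOXB1 proteins, Pou3f4 was higher (0.97) and Pou3f1 lower (-0.49). RNA of Sox2ot, which overlaps Sox2, stood at 14.7 CPM in flox and 11.3 in KI on average, and the use of strand in counting is not stated.

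At neural day 16 the direction depended on the gene. Nes was 90.1 and 103 CPM in flox and 69.6 and 74.3 in KI. Sox2 was 65.3 and 72.5 CPM in flox and 55.9 and 57.5 in KI. Vim was 324 and 372 CPM against 263 and 279. These 3 genes were lower in KI without overlap (30.9% of all genes tested were so separated), by -0.40 for Nes (SE 0.10, edgeR adjusted p = 0.004925), -0.25 for Sox2 (SE 0.09, adjusted p = 0.0392) and -0.33 for Vim (SE 0.10, adjusted p = 0.0188). Nes was called in each of 11 alternatives. The Sox2 call was lost without flox 2 (log2 fold change -0.17), KI clone 27 (-0.23), KI clone 48 (-0.26) or the filter on low counts (-0.24), and the Vim call without flox 2 (-0.23) or KI clone 27 (-0.29).

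Sox1 was 15.5 and 15.2 CPM in flox and 18.9 and 17.2 in KI at day 16, and Sox3 was 6.75 and 8.32 in flox and 10.0 and 9.12 in KI. Both were called higher, Sox1 by 0.26 (SE 0.10, edgeR adjusted p = 0.0422) and Sox3 by 0.38 (SE 0.12, adjusted p = 0.0201), but both calls were lost without TMM factors, a setting chosen after seeing the data. RNA of Sox1ot, which overlaps Sox1, stood at 1.43 CPM in flox and 4.24 in KI on average. Its part in the Sox1 counts was not tested. On library totals alone the differences were 0.06 for Sox1 (edgeR adjusted p = 0.669) and 0.18 for Sox3 (0.262), and that scaling also turned the share of higher genes among those called from 57.9% to 30.1%. In the authors' RPKM the log2 ratio of means was -0.00 for Sox1, 0.11 for Sox3 and -0.66, -0.52 and -0.60 for Nes, Sox2 and Vim, so the lower values of these 3 genes appear on each of the 3 scales. The Sox1 call held in 4 of 11 alternatives. Beside library totals it was lost without flox 1 (0.28), flox 2 (0.25) or KI clone 27 (0.20), with DESeq2 (0.26, adjusted p = 0.0698), with TMM factors from all 37 libraries (0.23, edgeR adjusted p = 0.0672) and when the day 16 libraries were fitted alone (0.17, edgeR adjusted p = 0.384). The Sox3 call held in 7 of 11 and was also lost without flox 1 (0.24) or KI clone 27 (0.31) and with the day 16 libraries alone (0.28, edgeR adjusted p = 0.223). Msi1 (0.20), Prom1 (0.12) and Sox21 (-0.13) were not called. The direction of Msi1 and Prom1 depended on the setting. Msi1 was -0.01 on library totals, -0.07 in RPKM and 0.36, and called, without KI clone 27 (edgeR adjusted p = 0.0145). Prom1 was -0.09 on library totals, -0.13 in RPKM, -0.07 without flox 2 and 0.36, and called, without flox 1 (edgeR adjusted p = 0.0184).

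In all, 2 of 8 were higher against 27.1% of all genes tested, and 3 of 8 lower against 19.7%, with a median of -0.01 beside 0.09 over all genes. With the day 16 libraries fitted alone 15.6% of genes were higher and 20.3% lower (43.4% higher among those called), and on library totals 12.5% and 29.1%. All 12 neuronal genes were higher in KI at day 16 (8049 to 8297 CPM in flox, 12920 to 14220 in KI), all 10 mesenchyme genes lower (4336 to 4573 against 1154 to 1412 CPM), and 7 of 10 genes of dividing cells lower (327 to 344 against 237 to 246 CPM). Extraembryonic endoderm genes were lower for 3 of 9 and higher for 1 (81.3 to 81.4 against 13.6 to 25.6 CPM). What these shifts add to the members' differences was not tested. Of 25 other progenitor genes, 3 were higher and 10 lower in KI, among them the proneural gene Neurog2 at -2.63. Of 5 astrocyte and radial glia genes, 1 was higher and 3 were lower. Among paralogs of the filament, Musashi and prominin genes, 4 of 10 were higher and 3 lower, the largest being the astrocyte filament gene Gfap (-3.59) and the muscle filament gene Des (-3.09).

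From day 8 to day 16 all 8 genes fell in both genotypes. Sox3 fell most, with log2 changes of -4.82 in flox and -4.83 in KI (edgeR adjusted p = 1.31e-11 and 4.70e-12). In the same order the changes were -3.56 and -3.64 for Prom1, -2.60 and -2.91 for Nes, -2.10 and -2.49 for Msi1, -2.05 and -2.77 for Sox2 and -1.67 and -2.14 for Sox21. Sox1 changed least, by -1.55 in flox and -1.83 in KI, followed by Vim in flox (-1.62, and -2.24 in KI). Every one of the 8 passed in each genotype, against 38.7% of genes lower in flox and 39.2% in KI. The medians were -2.07 in flox and -2.63 in KI. Genes of dividing cells fell as well, 10 of 10 in both genotypes, from 2763 to 2789 CPM to 327 to 344 CPM in flox. Epithelial genes (6 of 6) and extraembryonic endoderm genes (7 of 9) also fell in both. Of 10 mesenchyme genes 8 rose in both (391 to 394, then 4336 to 4573 CPM in flox), as did 5 of 5 astrocyte and radial glia genes. The part of these lists was not tested. With TMM factors from all 37 libraries the members' median shifted by 0.14 in flox and 0.12 in KI, and on library totals by -0.03 and -0.20, which changed no direction.

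The change in the KI difference between the days was tested as an interaction. It was called for Sox2 (-0.72, SE 0.13, edgeR adjusted p = 0.00119) and Vim (-0.63, SE 0.14, adjusted p = 0.00582), which were 0.47 and 0.30 higher in KI at day 8 and lower at day 16. The Vim difference at day 8 was not called by itself, and the Sox2 call at day 16 held in 7 of 11 alternatives. By the interaction 2 of 8 were lower, against 14.0% of all genes, with a median of -0.35 beside 0.08. Sox3 showed the smallest interaction, -0.01 (edgeR adjusted p = 0.959). With the line or clone number as a block, Sox21 (-0.45, edgeR adjusted p = 0.0215) and Msi1 (-0.40, adjusted p = 0.0446) were also called, against -0.47 (0.0541) and -0.39 (0.0786) without it, making 4 of 8 lower against 15.0% of all genes in that fit. Without 1 library 3 other members were called by edgeR: Sox21 without day 8 KI clone 48 (-0.67, adjusted p = 0.00543), Msi1 without day 16 KI clone 48 (-0.58, adjusted p = 0.00801) and Nes without day 16 flox 1 (-0.41, adjusted p = 0.0237). On library totals 6 of 8 were called, all lower, against 19.3% of all genes, and the share of higher genes among those called went from 57.8% to 37.6%.

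**Figure D3:**
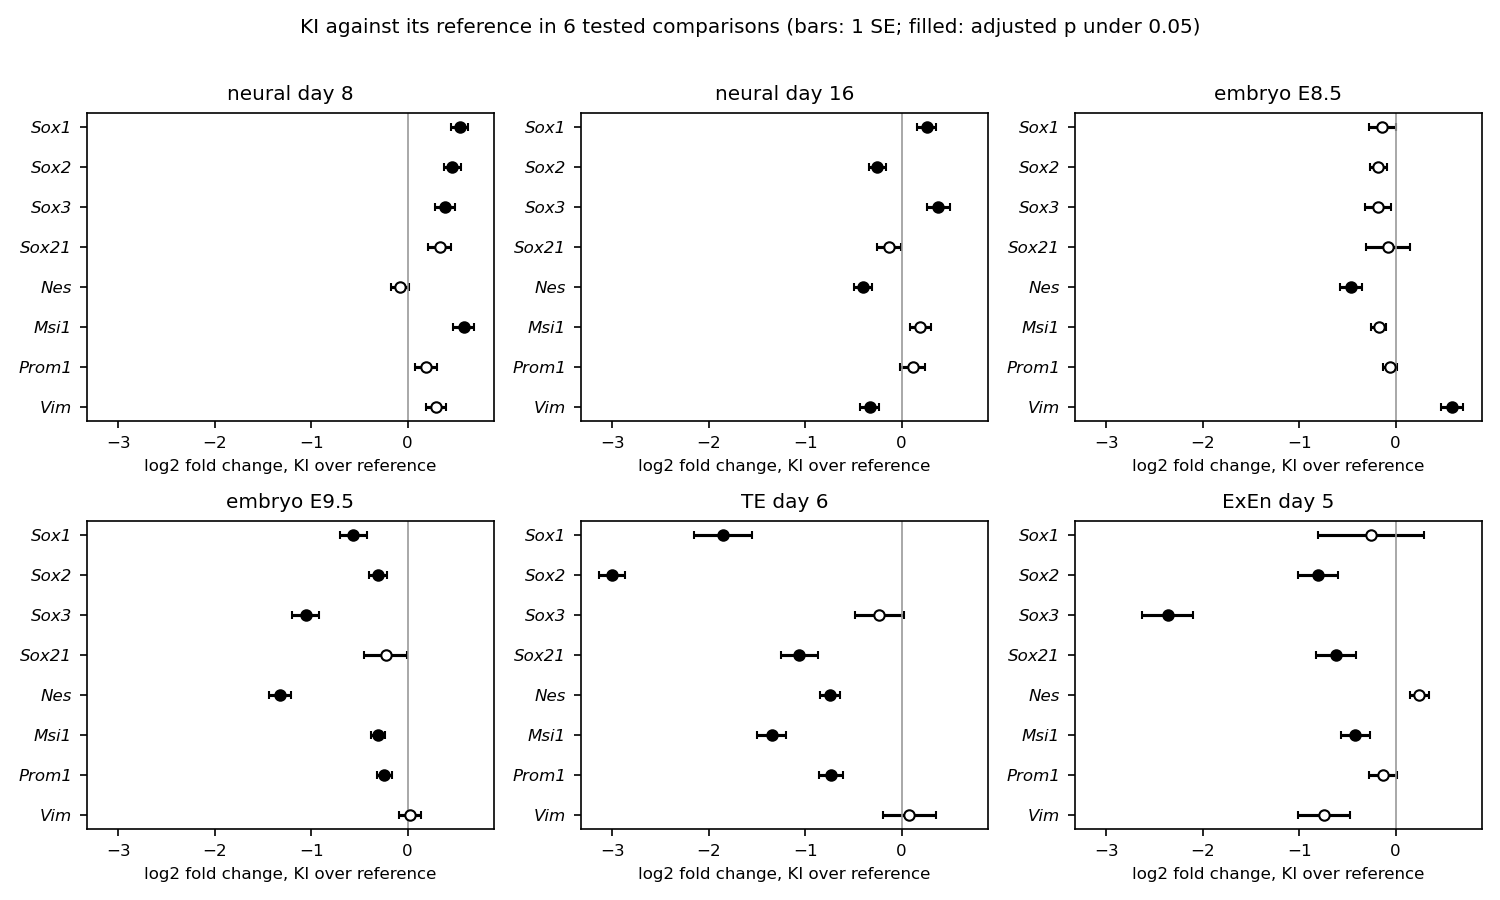
Log2 fold change of KI over flox or control for each of the 8 genes in the 6 tested settings, with bars of 1 standard error from edgeR and filled points for an adjusted p under 0.05. Sox2 and Vim change sign between neural days 8 and 16, Nes and Sox3 are lowest in E9.5 embryos among the embryo points, and Sox2 reaches -2.998 in TE.

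In E8.5 embryos, where the neural tube is closing, 2 of the 8 genes differed, both of them filament genes. Nes was 121, 151 and 155 CPM in controls and 100, 106 and 104 in KI. Vim was 268, 375 and 314 CPM in controls and 468, 431 and 540.5 in KI. Neither gene overlapped between groups, nor did Sox2, Sox3 and Msi1, all 3 below control. Nes was lower by -0.46 (SE 0.11, edgeR adjusted p = 0.0360) and Vim higher by 0.59 (SE 0.11, adjusted p = 0.0100). Against this, 1.83% of 15436 genes tested were lower and 3.63% higher, and KI lay below control without overlap for 12.8% (4 of 8 members) and above for 12.0% (1 of 8). The other 6 members differed by -0.06 to -0.18 and none was called. Sox2 was 145, 150.1 and 147 CPM in controls and 131, 140 and 120 in KI, a difference of -0.18 with an edgeR adjusted p of 0.313.

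The edgeR call of Nes at E8.5 was lost without KI replicate 1, 2 or 3 or control replicate 2 or 3 (log2 fold change -0.50 to -0.40) and without the filter on low counts, while the Vim call was lost only when the E8.5 libraries were fitted alone (0.60, adjusted p = 0.0821). With the title number as a block, 1304 genes in place of 843 were called, and Nes and Vim were again the 2 members among them. None of 10 mesenchyme genes (Vim is not on the list) and none of 5 embryonic blood genes was called at E8.5. The mesenchyme genes summed to 745 to 958 CPM in controls and 998 to 1739 in KI. The blood genes summed to 643 to 1228 CPM in controls and 102 to 182 in KI. Of 10 extraembryonic endoderm genes 3 were higher (233 to 591 CPM in controls, 246 to 599.9 in KI). Of 6 epithelial genes 1 was higher (592 to 736 against 758.5 to 927 CPM). Of 12 neuronal genes 2 were lower (94.2 to 105 against 96.7 to 99.3 CPM). The part of these genes in the Nes and Vim values was not tested.

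At E9.5, 6 of the 8 genes were lower in KI embryos. Nes was 339, 340.5 and 256 CPM in controls and 137, 122 and 118 in KI. Sox3 was 145, 142 and 106 CPM in controls and 75.8, 62.6 and 52.0 in KI. The highest KI embryo lay below the lowest control for both genes, as for 20.5% of all genes tested, with log2 fold changes of -1.32 (SE 0.12, edgeR adjusted p = 4.35e-06) for Nes and -1.06 (SE 0.14, adjusted p = 0.000147) for Sox3. Sox1 was 86.6, 79.2 and 63.4 CPM in controls and 56.5, 59.2 and 40.2 in KI, also without overlap (-0.57, SE 0.14, edgeR adjusted p = 0.00881). Msi1 was 124, 125 and 108 CPM against 96.0, 102 and 93.0, a smaller shift that was called as well (-0.31, SE 0.08, edgeR adjusted p = 0.00487).

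Sox2 was 236, 229 and 192 CPM in E9.5 controls and 179, 202 and 154 in KI, and the groups overlapped although it was called (-0.30, SE 0.09, edgeR adjusted p = 0.0198). Its call was lost without control 1 (-0.25), control 2 (-0.28) or KI 3 (-0.21). Prom1 (-0.24, SE 0.07, edgeR adjusted p = 0.0201) was lost without control 1 (-0.19) or KI 3 (-0.22). Nes, Sox3, Sox1 and Msi1 were called in every one of 14 alternatives. Sox21 was 65.2, 63.2 and 49.3 CPM in controls and 59.8, 61.0 and 32.0 in KI and was not called (-0.23, edgeR adjusted p = 0.489). Its KI 3 embryo was the lowest of the 6, and without it the difference was 0.02. Vim overlapped between the groups, at 616 to 722 CPM in controls and 643 to 729 in KI (0.02, edgeR adjusted p = 0.905).

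**Figure D4:**
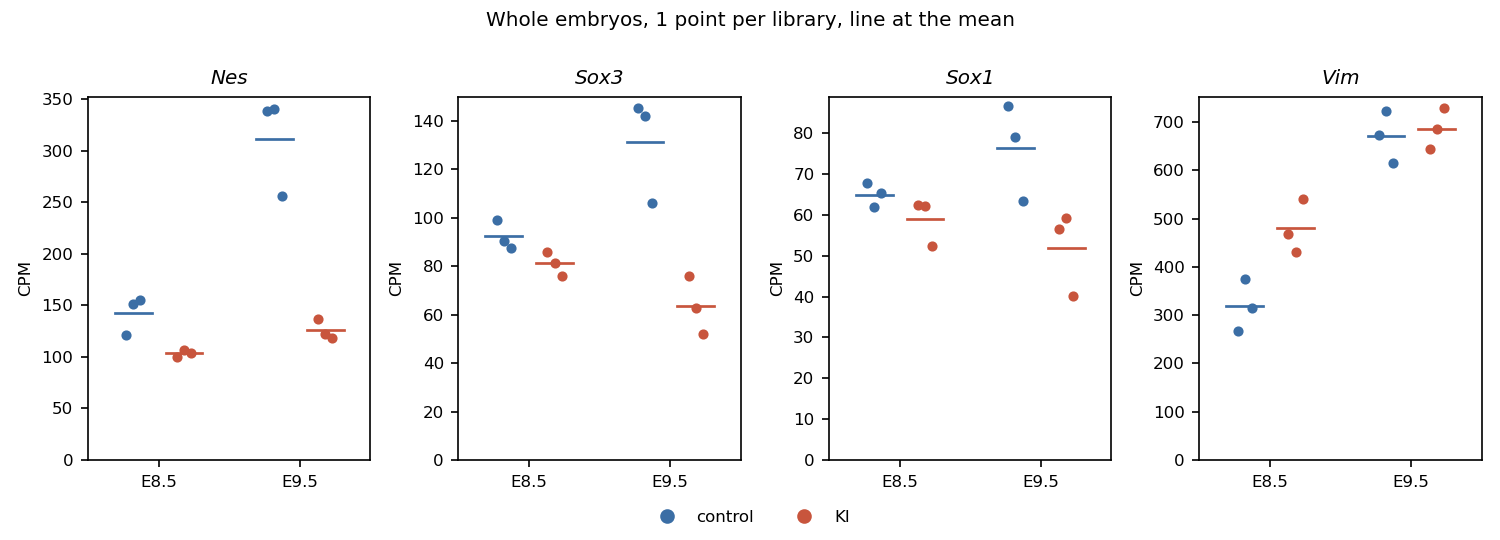
Levels of Nes, Sox3, Sox1 and Vim in the 12 embryo libraries, in CPM on linear axes from 0, by stage and group, each point 1 library and each line a group mean. At E9.5 the 3 KI embryos lie below the 3 controls for Nes, Sox3 and Sox1 and overlap them for Vim, which was higher in KI at E8.5.

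The 6 of 8 lower at E9.5 stand against 14.9% of all genes tested, and the members' median was -0.31 beside 0.01. Control embryo 3 and KI embryo 3 were the lowest of their groups for Sox1, Sox2, Sox3 and Sox21, and these 2 embryos share a title number, while the other 4 share another. With that number as a block Sox21 was called as well (-0.27, edgeR adjusted p = 0.0430), making 7 of 8 lower against 17.3% of all genes in that fit. Neuronal genes moved the same way, with 9 of 12 lower and sums of 250.1 to 349 CPM in controls and 105 to 113 in KI. Heart genes rose, 6 of 6 (344 to 468 against 852 to 1637 CPM), as did 4 of 6 epithelial genes (213 to 391 against 532 to 559.6 CPM) and 4 of 10 extraembryonic endoderm genes (127 to 133 against 293 to 430.5 CPM), and 5 of 10 genes of dividing cells fell (3377 to 3458 against 2958 to 3010 CPM). The part of these groups in the members' values was not tested. Among 26 other progenitor genes 12 were lower in KI and 1 higher, with Dbx1 at -3.14 and Olig2, a factor of motor neuron progenitors, at -2.34. The same list counted 6 lower and 1 higher at E8.5, where Dbx1 was at -2.45. Of the 6 POU genes 3 were lower at E9.5, led by Pou3f4 (-1.75) and Pou3f3 (-0.997). By contrast 3 of 14 other SOX genes were higher and none lower, led by Sox17 (1.09) and Sox7 (0.83), which are known from endothelium and endoderm. Sox2ot stood at 12.3 CPM in controls and 5.91 in KI.

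The embryo groups were also compared between stages. In controls 6 of 8 rose, against 12.2% of all genes: Nes by 1.14, Vim by 1.08, Msi1 by 0.84, Sox2 by 0.58, Sox3 by 0.52 and Prom1 by 0.36. In KI embryos Msi1 (0.71), Vim (0.51) and Sox2 (0.46) rose, 3 of 8 against 15.9% of all genes, while Nes (0.28) and Sox3 (-0.35) were not called. Nes was called higher with DESeq2 (adjusted p = 0.0401), with the compared groups alone (edgeR, 0.00716) and on library totals (edgeR, 0.0260). Sox3 was called lower with DESeq2 (adjusted p = 0.0159), with the compared groups alone (edgeR, 0.0414) and without E9.5 KI 1 (edgeR, -0.52, adjusted p = 0.00564). Sox21 was called higher without E9.5 KI 3 (0.64, edgeR adjusted p = 0.000502). The share of higher genes among those called went from 50.2% to 64.8% in controls and from 49.0% to 62.5% in KI on library totals. The Sox3 call in controls was lost without E8.5 control 2 (0.49) or 3 (0.47), or E9.5 control 1 (0.42) or 2 (0.45). Tested as an interaction, the KI difference moved down between stages for Nes (-0.86, SE 0.16, edgeR adjusted p = 0.00754) and Sox3 (-0.87, SE 0.19, adjusted p = 0.0199), 2 of 8 against 3.24% of all genes. With the title number as a block Sox1 was called too (-0.43, edgeR adjusted p = 0.0159), making 3 of 8 lower against 4.85% of all genes in that fit. Nes was called in every one of 19 alternatives. Sox3 was lost without E8.5 KI 1 (-0.83), E8.5 control 3 (-0.84), E9.5 control 2 (-0.81) or E9.5 KI 2 (-0.86). Without E8.5 KI 2 (-0.87) it was called, just inside the threshold. The Vim interaction of -0.57 had an edgeR adjusted p of 0.0554 and was called in 5 of 19 alternatives. Among these were the fits without E8.5 control 1 (-0.45), control 2 (-0.70) or KI 2 (-0.63).

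In TE cultures 6 of the 8 genes were lower in KI, and Sox2 had the largest change. Sox2 was 266 and 252 CPM in flox and 26.7 and 37.7 in KI (log2 fold change -2.998, SE 0.14, edgeR adjusted p = 8.26e-08). Sox1 was 8.00 and 7.48 CPM against 1.86 and 2.40 (-1.85, SE 0.30, edgeR adjusted p = 0.000147). Msi1 was 17.5 and 15.3 CPM against 6.84 and 5.95 (-1.35, SE 0.15, edgeR adjusted p = 5.10e-06). None of these groups overlapped, nor did those of Sox21 (-1.06), Nes (-0.74) and Prom1 (-0.73), which were called too. Such separation with KI below flox was found in 38.1% of all genes tested. Sox3 (5.47 and 5.26 against 3.66 and 5.42 CPM) and Vim (179 and 196 against 174 and 220.1 CPM) overlapped and were not called. So 6 of 8 were lower against 24.2% of genes tested, with a median of -0.90, and the 6 were called in each of 11 alternatives.

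Pluripotency genes fell with Sox2 in TE, 8 of 10, from 1537 to 1545 CPM in flox to 590 to 776 in KI, including Pou5f1 (-1.33) and Nanog (-1.92). Of 10 neuronal genes 5 were lower (146 to 149 CPM in flox, 52.6 to 56.6 in KI), of 6 heart genes 4 (28.2 to 30.6, 5.05 to 5.18 CPM), of 9 mesenchyme genes 5, with 1 higher (328 to 330.0, 86.6 to 138 CPM), and of 10 genes of dividing cells 6, with 1 higher. The 6 epithelial genes listed (3 higher, 1 lower) summed to 4605 to 4691 CPM in flox and 6713 to 6945 in KI. Known trophectoderm genes were present in all 4 libraries, as seen in genes picked after their values were known. Cdx2, whose reads may come from the gene or the transgene, stood at 26.1 and 28.8 CPM in flox and 100 to 106 in KI, and Gata3 at 16.04 and 17.2 in flox and 58.9 and 65.8 in KI. Elf5 was low in KI, at 0.788 and 1.62 CPM against 15.45 and 18.4 in flox. The part of these gene groups in the members' values was not tested. Of 21 other progenitor genes 5 were higher and 8 lower. The largest changes were at very low levels: the forebrain factor Six3 had no reads in flox and a mean of 0.780 CPM in KI, and the radial glia gene Fabp7 went from a mean of 0.111 to 1.03 CPM.

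In ExEn cultures Sox3 was 13.0 and 15.1 CPM in flox and 2.06 and 3.41 in KI (-2.36, SE 0.27, edgeR adjusted p = 1.02e-05), called in each of 11 alternatives. Sox2 was 7.86 and 8.40 CPM against 5.06 and 4.18 (-0.81, SE 0.21, edgeR adjusted p = 0.0137). Both genes were lower in KI without overlap, a separation seen in 34.9% of all genes tested, as were Sox21 (-0.61, edgeR adjusted p = 0.0301) and Msi1 (-0.42, adjusted p = 0.0455). The Sox2 call was lost without flox 2 (-0.76) or KI clone 48 (-0.68), the Sox21 call without flox 1 (-0.59), flox 2 (-0.64) or KI clone 48 (-0.40), and the Msi1 call in 8 of 11 alternatives, each single library among them (-0.47 to -0.37). Vim was 1636 and 1679 CPM in flox and 756 and 1225 in KI and was not called (-0.74, edgeR adjusted p = 0.110), and the KI clones lay far apart. It was called with DESeq2 (adjusted p = 0.0247) and without KI clone 48 (-1.13, edgeR adjusted p = 0.00555). Nes was 376 and 390 CPM against 409 and 498, the one member with higher KI values here, and was not called (0.25, edgeR adjusted p = 0.0792), but was with DESeq2 (adjusted p = 0.0326) and without KI clone 27 (0.38, edgeR adjusted p = 0.000938). Sox1 had 6 to 10 reads per library (0.298 and 0.525 CPM in flox, 0.281 and 0.408 in KI) and was not called (-0.25, edgeR adjusted p = 0.769). It was tested only because the TE libraries share the fit. In all, 4 of 8 were lower against 17.4% of genes tested, with a median of -0.52 that includes Sox1. All 10 endoderm genes were lower in KI (1475 CPM in both flox libraries, 229 to 236 in KI, where Ttr, Apoa1 and Apob had 3 reads or fewer). Of 9 mesenchyme genes 5 were lower and 2 higher (2112 to 2194 against 386 to 595 CPM), and of 10 genes of dividing cells 8 were lower (1692 to 1695 against 1247 to 1254 CPM). Of 10 neuronal genes 6 were higher and 3 lower (161 to 164 against 97.7 to 110.0 CPM), and of 6 epithelial genes 4 were higher (4759 to 4772 against 5817 to 6975 CPM). Their part in the members' values was not tested.

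Along the EB course Nes was the one member called between KI and flox when the 3 days were averaged. Nes was 28.6 CPM in flox ESCs against 16.5 and 22.0 in KI clones 27 and 48. At day 4 it was 379 CPM against 256 and 259, and at day 10 it was 174 against 124 and 109. KI lay below flox on each day, with a log2 fold change of -0.59 (SE 0.09, edgeR adjusted p = 0.0415), 1 of 8 lower against 0.332% of 16567 genes tested. The edgeR call was lost on leaving out any single library, at adjusted p = 0.0506 to 0.149, while the value stayed between -0.64 and -0.54. Vim (-0.66, edgeR adjusted p = 0.202) became -1.02, and called, without the day 10 flox library (adjusted p = 0.00976) or all day 10 libraries (0.0190), and Sox21 (-0.66, edgeR adjusted p = 0.284) became -1.06 without the day 10 flox library (0.0488). Flox had 1 library per day, and single days are described without a test, counting, among genes that reached 1 CPM in 1 of the 3 libraries or more, a gene where each KI clone differed from flox by 2-fold or more in the same direction after 0.5 CPM was added to each level.

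On that rule Sox1 was higher in KI and Vim lower at day 0, 1 of 8 in each direction against 4.94% higher and 2.92% lower among all genes. Sox1 was 2.89 CPM in flox ESCs and 6.81 and 8.59 in KI, and Vim 659 against 289 and 302. Sox2, the pluripotency member, was 726 CPM in the flox ESCs and 332 and 375 in KI, just short of the 2-fold limit for clone 48 (log2 ratio -0.95). Sox21 was 8.56 CPM against 3.57 and 4.20 and passed only when no CPM was added, a setting chosen after seeing the data, under which 2 of 8 were lower against 3.62% of genes. The members past 2-fold on the other days were the same with and without the added 0.5 CPM. At day 4 Sox1 was higher again (1.12 CPM against 3.28 and 4.71), 1 of 8 against 1.57%, and Sox3 was 18.6 CPM in flox and 36.8 and 38.1 in KI. Day 10 brought opposite extremes in the SOXB1 group. Sox3 was 3.88 CPM in flox and 64.2 and 27.6 in KI, 1 of 8 higher against 3.54%. Sox1 was 0.359 and 0.125 CPM in KI and 2.04 in flox. It entered the rule only through the flox library, where it was high, so it is not set against the 3.82% of all genes that were lower. Those KI values rest on 7 and 3 reads, against 53 in flox, and the ratios were 0.176 (95% exact interval 0.0676 to 0.389) and 0.0614 (0.0123 to 0.189), counting error only.

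**Figure D5:**
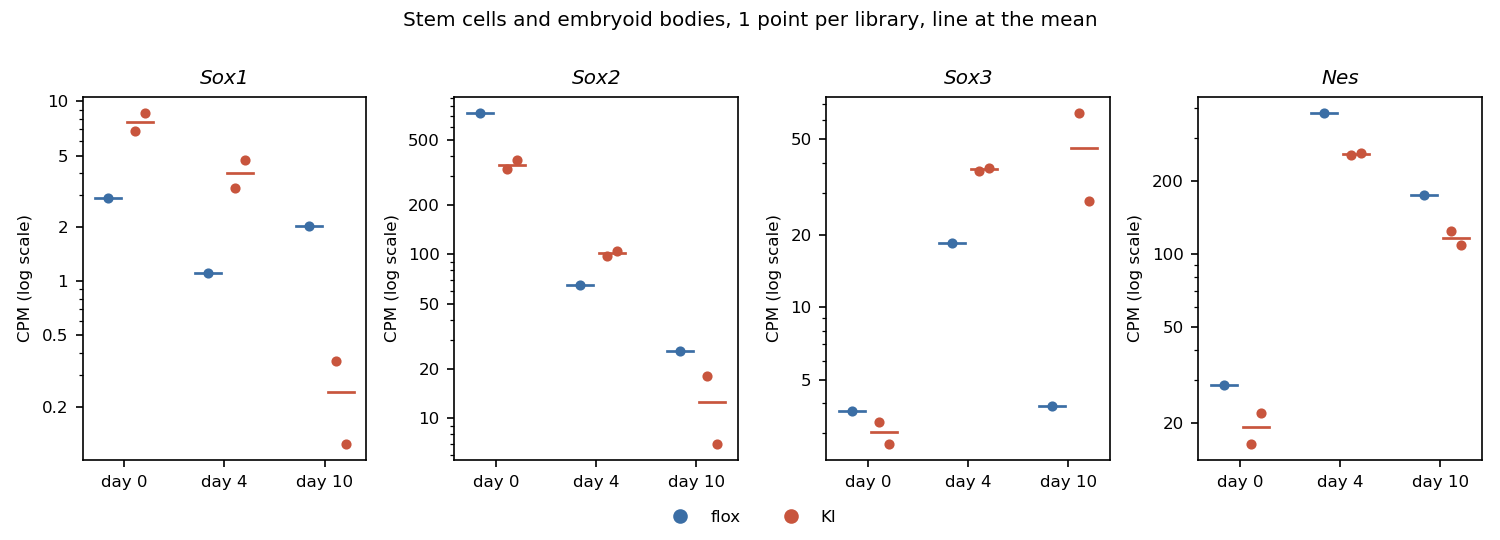
Levels of Sox1, Sox2, Sox3 and Nes in ESCs at day 0 and EBs at days 4 and 10, in CPM on logarithmic axes, with the single flox library and the 2 KI clones as separate points and lines at the means. Sox3 at day 10 is 3.88 CPM in flox and 64.2 and 27.6 in the KI clones, whereas Sox1 lies above flox in KI at days 0 and 4 and below it at day 10.

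Within the KI clones, days could be tested. From day 0 to day 4 Nes rose by 3.75, Sox3 by 3.63, Prom1 by 1.74 and Vim by 0.77, while Sox2 fell by 1.80, Sox21 by 1.44 and Sox1 by 0.94. That is 4 of 8 higher against 26.5% and 3 of 8 lower against 23.8%. The Sox1 call (edgeR adjusted p = 0.0469) was lost on leaving out any of the 4 libraries, on library totals (adjusted p = 0.0670) and with summed transcripts (0.0556), and the Sox2 call (0.0124) without day 4 clone 27 (-1.75) or day 0 clone 48 (-1.71). From day 4 to day 10 Sox1 fell by 4.11, Sox2 by 3.08, Prom1 by 1.41 and Nes by 1.19, whereas Sox21 rose by 2.35 and Vim by 1.20. This was 2 of 8 higher against 36.7%. Of the 8, 4 were lower, but Sox1 among them had 7 and 3 reads at day 10. It passed the low-count filter only through the earlier days, where it was higher. The 4 are therefore not set against the 36.6% of all genes that were lower. Under the alternatives the Sox1 change ran from -4.97 to -3.5 and the Sox2 change from -3.9 to -2.53. Of 10 pluripotency genes 7 fell from day 0 to day 4 (6661 to 7235 CPM, then 2126 to 2190) and 8 from day 4 to day 10 (to 168 to 219.9 CPM). All 10 genes of dividing cells fell from day 4 to day 10 (3833 to 3929, then 1536 to 1612 CPM), and all 10 mesenchyme genes (103 to 119.9, then 7314 to 17180 CPM) and all 10 endoderm genes (109 to 116, then 1448 to 1681 CPM) rose. Their part in the members' changes was not tested. Sox3 differed between the clones at day 10, and its change of 0.24 (edgeR adjusted p = 0.583) became -0.48 without day 10 clone 27 and 0.74 without day 10 clone 48, both called by edgeR (adjusted p = 0.00148 and 1.06e-05). Mesenchyme genes summed to 13960 CPM in flox at day 10 and to 7314 and 17180 in KI, on either side of flox. So did neuronal genes. Both clones lay below flox for heart (2157 against 219 to 328 CPM), blood (360 against 195 to 215) and astrocyte and radial glia genes. They lay above it for endoderm (967 against 1448 to 1681 CPM), epithelial (875.5 against 1581 to 2256), pluripotency and dividing-cell genes. The part of these lists in the members' day 10 values was not tested.

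Patterns over the 18 group means were compared by Pearson correlation of log2 levels among 16147 genes, as a description, since groups share clones and protocols. Zbtb12 (0.96) and Ift140 (0.94) were most like Sox1, Pold2 (0.94) and Kmt5c (0.91) most like Sox2, and Nrarp and Fv1 (both 0.90) most like Sox3. Sox21 was nearest to Dexi and Bloc1s5 (0.92), Msi1 to Zswim5 (0.95) and Angel2 (0.94), Prom1 to Katnal2 (0.92) and Timm21 (0.91). Nes was nearest to Midn (0.90) and Cyp26a1 (0.88), a gene that degrades retinoic acid, and Mier3 (0.81) was among those nearest to Vim. Among the 8 themselves Sox1 and Sox21 had the highest correlation (0.82) and Sox2 and Vim the lowest (-0.33), and the filament genes Nes and Vim reached 0.71.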

How the data were processed

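RNA abundance was measured in 37 libraries of 18 groups, named from the sample titles. The other 63 of 100 samples were not analysed here. Raw read counts and RPKM for 29082 RefSeq transcripts per library were deposited by the authors, and RPKM equals count over length and a library denominator in the deposited tables (largest relative deviation 5.4e-12). The build mm9 and the tools bcl2fastq, Bowtie2, STAR and SICER 1.1 are named, per the submitters' processing notes, without roles, and the counter and its use of strand are not given in the sources used here.

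Accessions were matched to symbols (28436 matched, and 646 unmatched accessions held 1.25% to 2.13% of reads), and the transcript with the most reads stood for each of 23109 gene-level entries. Total reads are given with the results. Of the 8 genes only Prom1 has more than 1 transcript in the tables. Counts were tested with edgeR 4.0.16 in R 4.3.3 (TMM factors, filterByExpr with a minimum count of 10, robust quasi-likelihood F test, Benjamini-Hochberg adjustment over all genes tested, threshold 0.05), with standard errors from the F statistic. Separate fits held the neural, embryo, TE with ExEn and ESC with EB libraries, so flox and control libraries are shared between comparisons. Python 3.11.15 with pandas 2.3.3 and numpy 2.4.6 handled tables. Patterns used log2(CPM + 0.5) and genes reaching 1 CPM in a group, and the 2 most alike genes per member were named. Lists are given by counts and by up to 2 of their largest called genes, and some genes these rules name are not reported here. Members and lists were chosen with earlier results of these data known.

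On simulated counts, 4-fold changes were recovered for 96.0% of 198 genes (16162 genes run) for neural day 8, 87.8% for E8.5, 92.3% for TE, 80.8% for the EB course and 86.7% for KI day 4 against day 0. False calls made up 6.4%, 6.0%, 6.2%, 5.5% and 8.6% of calls in the same order, above the nominal threshold. Changes under 4-fold, such as those of the members between KI and flox in neural cultures, were not simulated. Nor were changes in as many genes as the real data showed. Alternatives were DESeq2 1.42.0, other scalings, no low-count filter, summed transcripts, single groups, a replicate block, and leaving out libraries. E8.5 embryos with the same number in their titles deviated together (correlations 0.299, 0.349 and 0.152), and so did KI clones across days (0.275 in neural libraries, 0.145 to 0.386 in the EB course), which are the same lines. Flox libraries with the same number had a lower correlation across neural days, 0.0999.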

Additional observations from a re-analysis of the deposited data

Results flagged for a closer look

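The KI difference changed between neural day 8 and day 16 by -0.72 (log2) for Sox2 and -0.63 for Vim, and between E8.5 and E9.5 by -0.86 for Nes and -0.87 for Sox3, each called by edgeR as an interaction.

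Several other differences had opposite directions in 2 settings, in every KI library, and these differences between settings were not tested. Flox had 1 library per day in the EB course. The values are differences of log2 ratios of mean CPM with 0.5 CPM added, which understates the change of low genes such as Sox1. For Sox1 the KI over flox log2 ratio at EB day 10 minus that in ESCs was -3.05, and minus that at day 4 -3.25. For Sox2 the ratio at day 4 minus that in ESCs was 1.67, and at day 10 minus that at day 4 -1.63. Sox3 moved by 1.25 from ESCs to day 4 and by 3.66 from ESCs to day 10. Sox21 moved by 1.25 from ESCs to day 10 and by 0.95 from day 4 to day 10. Vim moved by 1.35 and 1.03 over the same intervals, and Msi1 by -0.95 from day 4 to day 10. The Nes ratio in ExEn minus that in TE was 0.99, which was not tested either.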

How the results depend on the processing

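Of 1599 values of the 8 genes under an alternative, 1462 stayed on their side of the threshold, 75 lost a call, 53 gained one and 9 changed direction. Of the 1462, 23 were not called and took the other sign within 1 SE. Depth limits Sox1 in ExEn (6 to 10 reads per library) and in KI EBs at day 10 (7 and 3 reads). Library totals without TMM factors, chosen after seeing the data, gave 3 members called at neural day 16, all lower against 29.1% of genes, with Msi1 at -0.01 and Prom1 at -0.09. They gave 6 in the neural interaction, all lower against 19.3% of genes. Between stages in KI embryos they gave 5, where 20.4% of all genes were higher and 12.2% lower. DESeq2 called 5 members in the neural interaction, all lower against 14.5% of genes, and 5 between stages in KI embryos (4 higher against 16.3% of genes, Sox3 lower against 2782 of 15436 genes). In the EB course it called 777 genes (2.25% of all genes higher, 2.44% lower) and 2 members. Fits of the compared groups alone called 3 members at day 16 (15.6% of all genes higher, 20.3% lower) and 1 at E8.5 (3.75% and 2.03%). Between stages in KI embryos they called 5 (15.9% and 16.4%). At neural day 8 such a fit called 4356 genes in place of 3202. With no low-count filter the Nes call at E8.5 was lost.

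With the replicate block 4 members were called in the neural interaction, 1304 genes at E8.5 and 1547 in the embryo interaction, where Sox1 (-0.43, edgeR adjusted p = 0.0159) was added. For E9.5 embryos of different groups with the same title number, correlations were -0.00599 to 0.177, the highest within the range at E8.5. The block there called 5284 genes in place of 4560, and added Sox21 at -0.27. It changed no other call of a member. No paired analysis was possible because the groups share no numbers for KI against flox in neural, TE and ExEn cultures.

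In the EB course edgeR called 0 genes with KI clone 27 alone (1049 at an unadjusted p under 0.05), 1 with clone 48 alone, 0 without day 4 (2507 unadjusted) and 306 without day 10. Members called there were 0 with clone 27 alone (1 unadjusted), 0 with clone 48 alone (1), 0 without day 0 (3), 0 without day 4 (2) and 1, Vim, without day 10, while DESeq2 on all libraries called 2. Msi1 was 0.16 without day 10. A minimum of 5 CPM left 655 genes past 2-fold at EB day 0.

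Leaving out 1 library gave 1896 to 2362 genes called at neural day 8, 2 to 4 members at day 16, with Prom1 at -0.07 to 0.36, and 3621 to 6038 genes in the neural interaction, with Prom1 at -0.26 to 0.17. Shares of all genes are not given for these fits, so the member counts in this paragraph are no result about the members. In embryos leaving out 1 library gave 363 to 755 genes and 1 to 2 members at E8.5, Sox21 at -0.38 to 0.02 at E9.5, and 607 to 1175 genes and 1 to 3 members in the embryo interaction. In ExEn it gave 3641 to 4967 genes and 1 to 4 members. In the EB course it gave 26 to 332 genes, 0 to 2 members and Msi1 at -0.32 to 0.17. Within KI it gave 4982 to 5398 genes from day 0 to day 4, and from day 4 to day 10 Sox3 at -0.48 to 0.74 and Msi1 at -0.51 to 0.03.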
